A study of Homo sapiens with 6 samples.

Results

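The 10 genes described here encode peptidases outside the neprilysin (M13) family that cut peptides of the kind neprilysin also cuts: CPD, CPM, DPP4, DPP7, ENPEP, ANPEP, LNPEP, TPP2, IDE and PRCP. They were taken by name, with earlier results of these data known, and found by Ensembl ID. All 10 are among the 38126 gene IDs in each file. RNA-seq was done on HK-2, an immortalised human line of renal proximal tubular epithelial cells, after 24 h with phosphoramidon (3 libraries) or untreated (3 libraries). All libraries shared the same culture: K-SFM without serum, to which bovine pituitary extract and recombinant EGF had been added, with cells plated a day ahead and near confluence at the start. The labels give neither the phosphoramidon dose nor a vehicle, and the titles of the untreated libraries carry the letters CSE, which are not explained, so the untreated group rests on the treatment label. HK-2 is a single cell line. Since the labels do not call the replicates separate cultures, the p-values reflect only how far these libraries differ, and that spread may be technical.

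Peptide hormones such as angiotensins, kinins and insulin are switched off, or turned into other active forms, by peptidases that trim them from one end or cut them inside. In the proximal tubule many of these enzymes sit in the brush border facing the filtrate, where they finish the breakdown of filtered peptides, while others work in the cytosol, the Golgi or lysosomes. Phosphoramidon is an inhibitor of some zinc peptidases, among them neprilysin and the endothelin-converting enzymes. The members fall into different catalytic classes. CPD and CPM are zinc carboxypeptidases, ANPEP, ENPEP and LNPEP are zinc aminopeptidases of the M1 family, and IDE is a zinc enzyme of the M16 family. DPP4, DPP7, PRCP and TPP2 are serine peptidases. DPP7 and PRCP act in vesicles and lysosomes, so not every member is a cell-surface or cytosolic enzyme.

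The coding bases of the catalytic sites are shown because they set zinc enzymes apart from serine enzymes. Phosphoramidon inhibits only some zinc peptidases, and whether it acts on any of these members was not tested. The bases were read from the principal transcripts of GENCODE 29 (GRCh38) and are the reference sequence. In the M1 aminopeptidases the capitals mark the codons of the 3 zinc ligands and of the catalytic glutamate, over 72 bases in each gene.
ANPEP: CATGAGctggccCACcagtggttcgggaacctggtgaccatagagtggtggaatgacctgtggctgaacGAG
ENPEP: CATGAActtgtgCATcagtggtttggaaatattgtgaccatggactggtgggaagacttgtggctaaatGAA
LNPEP: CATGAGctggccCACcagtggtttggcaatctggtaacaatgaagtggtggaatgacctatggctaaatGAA
The ANPEP site lies at chr15:89803949-89804270 on the minus strand, across exons 6 and 7 of 21. The ENPEP site lies at chr4:110509790-110510298 on the plus strand, across exons 5 and 6 of 20, and the LNPEP site at chr5:96993954-96996443 on the plus strand, across exons 6 and 7 of 18. ANPEP and LNPEP shared 84.7% of these bases, ENPEP and LNPEP 77.8%, and ANPEP and ENPEP 75.0%. IDE carries the inverted zinc motif of its family in exon 3 of 25, at chr10:92534733-92534747 on the minus strand, with capitals on the zinc-binding histidines and the catalytic glutamate.
IDE: CATttttgtGAACAT

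In 3 of the serine peptidases the capitals mark the codon of the catalytic serine, over 39 bases.
DPP4: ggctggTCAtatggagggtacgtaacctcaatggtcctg
DPP7: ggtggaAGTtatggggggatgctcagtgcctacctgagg
PRCP: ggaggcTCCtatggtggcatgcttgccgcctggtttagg
The DPP4 site spans exons 21 and 22 of 26 (chr2:162008629-162009246, minus strand), the DPP7 site exons 4 and 5 of 13 (chr9:137113466-137113872, minus strand), and the PRCP site lies in exon 4 of 9 (chr11:82850350-82850388, minus strand). DPP7 and PRCP, which belong to the same family, shared 61.5% of these bases, against 48.7% for DPP4 and PRCP and 41.0% for DPP4 and DPP7.

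Values are deposited FPKM, in which the fragments of a gene are divided by its length and by the library's total assigned to genes. Multiplying them by gene length gave back whole fragments, with assigned totals of 18690100 to 24919568 in phosphoramidon libraries and 23493829 to 24815378 in untreated libraries. Whether a fragment is a read or a read pair is not given in the sources used here. For each of the 10 members a single gene length gave whole numbers, within 0.001, in all 6 libraries. That length was the annotated merged exon length for CPM and IDE and was found by search for the other members. Markers of the labelled cell type were mixed. Among the proximal tubule markers the lineage factor PAX8 had a mean of 70.5 FPKM with phosphoramidon and 63.7 FPKM untreated, while the transporters SLC22A6 and SLC22A8 were listed at 0 in every library. The summed level of the 6 fibroblast markers ran from 23.5 to 24.9 FPKM with phosphoramidon and from 60.8 to 65.7 FPKM untreated, almost wholly from LUM and COL1A1, with COL3A1 listed at 0. All 4 of them that could be tested were lower at a limma adjusted p below 0.05, as were 17.9% of all tested genes. Of these markers PDGFRB and DCN were at low levels, with 19 to 63 and 37 to 165 fragments per library. The part of the fibroblast markers in the results for the peptidases was not tested. Summed endothelial and leukocyte markers stayed below 0.25 FPKM in each library, and the distal nephron markers below 0.1 FPKM.

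Of the 10 members, 9 were well expressed and ANPEP was close to absent. ANPEP, aminopeptidase N or CD13, is a textbook enzyme of the proximal tubule brush border. It stood at 0.099, 0.0412 and 0.0841 FPKM in phosphoramidon libraries, from 9, 5 and 8 fragments. In untreated libraries it stood at 0.07, 0.0676 and 0.0828 FPKM, from 8, 8 and 10 fragments. The groups overlapped, and the gene did not reach the minimum of 10 fragments in 3 libraries, so it was not tested. With every gene above 0 admitted its log2 fold change was -0.03 with a 95% interval from -0.68 to 0.61, on a scale where the pseudocount of 0.1 exceeds the levels and shrinks any change. A difference was not detectable at this depth.

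In levels per length, CPD led the members in phosphoramidon-treated cells and DPP4 did so in untreated cells. After phosphoramidon the order was CPD (48.4 ± 1.47 FPKM), DPP4 (36.2 ± 1.68), ENPEP (27.98 ± 0.154), CPM (19.8 ± 0.487), IDE (15.8 ± 0.217), DPP7 (11.04 ± 0.408), TPP2 (10.7 ± 0.659), LNPEP (8.51 ± 0.460), PRCP (4.74 ± 0.263) and ANPEP (0.0748 ± 0.0300), as FPKM with SD, n = 3. Each gene lay above the next in every library of the group, except that the ranges of DPP7 and TPP2 overlapped. In untreated cells the order was DPP4 (40.03 ± 2.36 FPKM), CPD (31.8 ± 1.05), ENPEP (28.99 ± 0.951), CPM (28.9 ± 0.755), DPP7 (14.1 ± 1.20), IDE (13.5 ± 0.499), TPP2 (7.92 ± 0.391), LNPEP (6.87 ± 0.125), PRCP (3.61 ± 0.206) and ANPEP (0.0735 ± 0.00817). There the ranges of ENPEP and CPM overlapped, and so did those of DPP7 and IDE. Beside all tested genes, whose median was 3.49 FPKM with phosphoramidon and 3.32 FPKM untreated, CPD lay above 96.0% of genes with phosphoramidon and 93.2% untreated, and PRCP above 57.1% with phosphoramidon and 51.9% untreated.

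The place of several members in that order, PRCP and TPP2 among them, depended on the gene length used. By the lengths found by search, the deposited values divide by 13197 bases for PRCP and 8793 for TPP2, while their principal transcripts are 3090 and 3931 bases long. Over the principal transcript PRCP came to 20.2 ± 1.12 FPKM with phosphoramidon and 15.4 ± 0.881 FPKM untreated, and TPP2 to 23.9 ± 1.47 FPKM with phosphoramidon and 17.7 ± 0.874 FPKM untreated. PRCP then ranked above LNPEP in both groups. With phosphoramidon DPP7 moved from rank 6 to rank 8 and CPM from 4 to 5, behind TPP2. In untreated cells CPM came above ENPEP. The ranges of TPP2 and CPM, of PRCP and DPP7, and of CPM and ENPEP overlapped there. The length cancels in a plain ratio of FPKM, but only nearly in the fitted fold change, where a pseudocount is added. For PRCP the log2 fold change was 0.319 with a pseudocount of 0.01, 0.312 with 0.1 and 0.257 with 1.

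**Figure D1:**
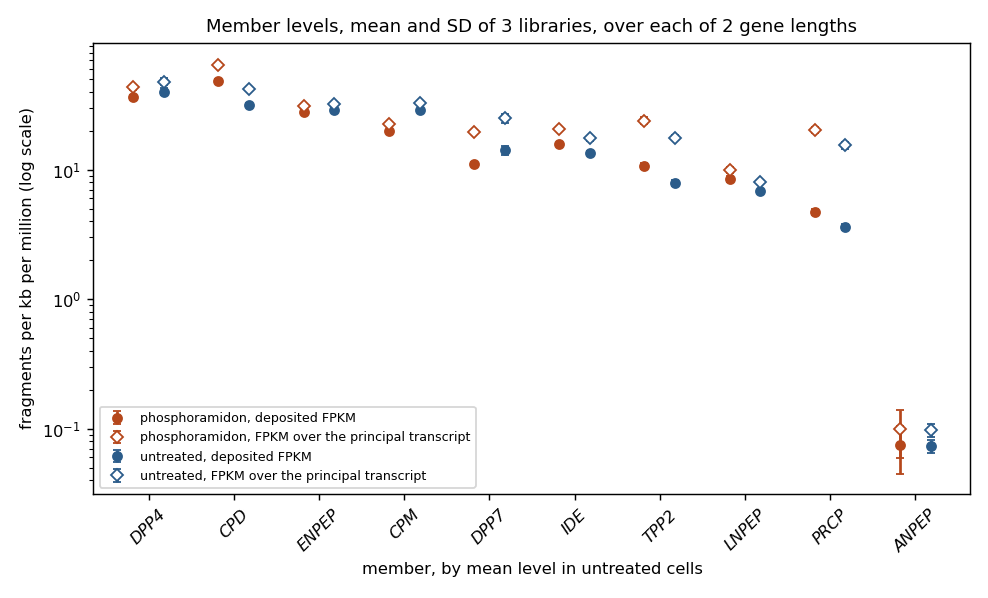
Levels of the 10 members (log axis, FPKM) in phosphoramidon and untreated cells, as mean and SD of 3 libraries, over the length the authors used (filled circles) and over the principal transcript (open diamonds). ANPEP lies near 0.07 FPKM, far below the others, and the distance between the symbols is widest for PRCP.

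The comparison asked which of these genes changed after 24 h of phosphoramidon. Of the 9 tested members, 5 rose (CPD, TPP2, PRCP, LNPEP and IDE) and 4 fell (CPM, DPP7, DPP4 and ENPEP). Fitted folds ran from 0.656 (CPM) to 1.45 (CPD), and 0 members passed a test against a 1.5-fold change (limma's treat, also 0 at unadjusted p under 0.05 and 0 with voom weights), where 0.804% of all 16175 tested genes did, with 0.148% of tested genes passing as higher. The tool was limma on log2(FPKM + 0.1) after scaling between libraries, with Benjamini-Hochberg adjustment over all tested genes and a threshold of 0.05. By it 33.6% of all tested genes were called, 15.6% higher and 17.9% lower, and 45.2% of the 7066 genes with a mean of at least 500 fragments, which all 9 members had. Since the members were chosen with earlier results of these data known, their share called is not a result about such peptidases. The FPKM ranges of the groups did not overlap in 8 of the 9 members, against 49.7% of all tested genes, and the exception was ENPEP. The median log2 fold change of the 9 was 0.16, the value of IDE, beside 0.01 over all tested genes. For the same reason this median is not a result about such peptidases. In the values as deposited, with no scaling between libraries, 5 members rose and 2 fell, since DPP4 and ENPEP were no longer called.

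**Figure D2:**
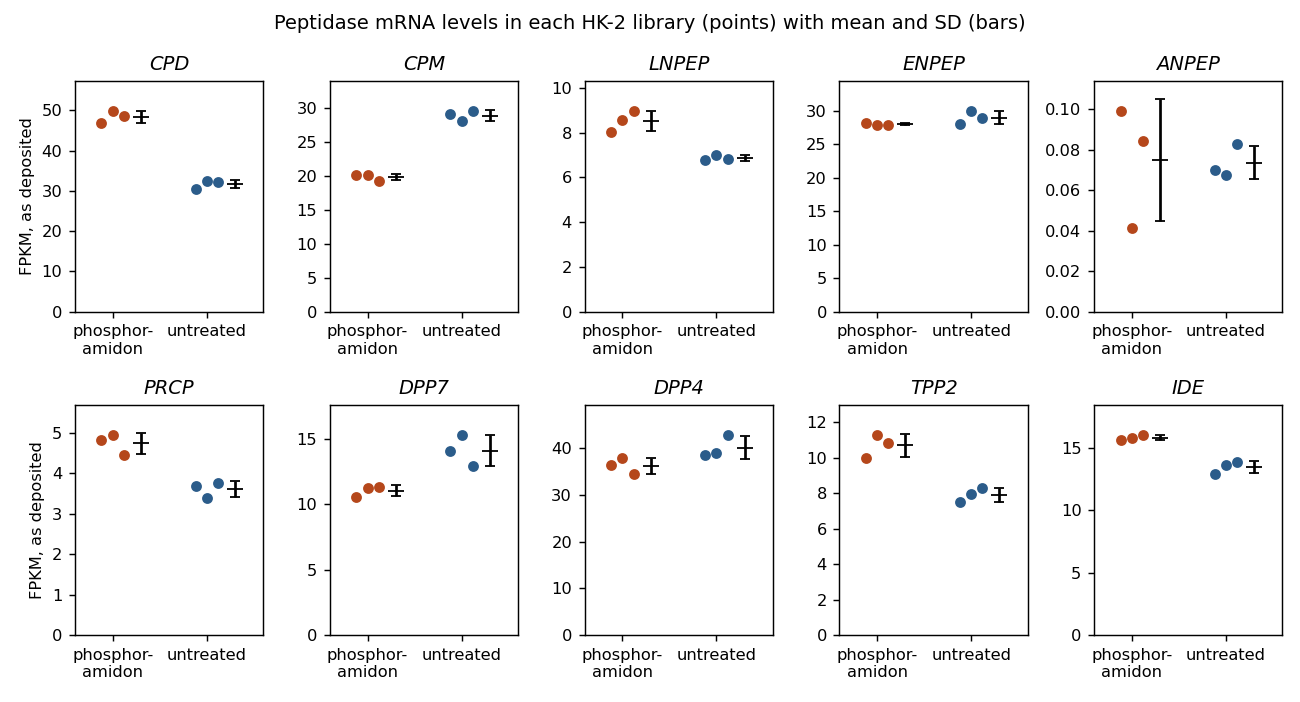
Deposited FPKM of each member in the 3 phosphoramidon and 3 untreated libraries (points), with the mean and SD of each group (bars), each panel from 0 on its own scale. CPD, LNPEP, PRCP, TPP2 and IDE are higher in all phosphoramidon libraries, CPM, DPP7 and DPP4 are lower in all of them, and the groups overlap in ENPEP and ANPEP.

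The zinc carboxypeptidases CPD and CPM went in opposite directions and held the largest changes of the 9. CPD, carboxypeptidase D (ENSG00000108582, chromosome 17, 30378905 to 30469989, plus strand), is a membrane enzyme of the trans-Golgi network that removes lysine and arginine from the C-terminal end of peptides. It was at 46.9, 49.8 and 48.6 FPKM in phosphoramidon libraries and at 30.5, 32.4 and 32.3 FPKM in untreated libraries. The lowest phosphoramidon library thus lay well above the highest untreated one. The log2 fold change was 0.54 ± 0.04 (SE), or 1.45-fold, with limma adjusted p = 4.1e-05.

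CPM, carboxypeptidase M (ENSG00000135678, chromosome 12, 68842197 to 68971570, minus strand), has the same preference for C-terminal lysine and arginine but is anchored on the cell surface, where it trims kinins. It was at 20.1, 20.1 and 19.3 FPKM in phosphoramidon libraries and at 29.1, 28.04 and 29.5 FPKM in untreated libraries. Replicates lay close together and the groups were far apart. The log2 fold change was -0.61 ± 0.05 (SE), with limma adjusted p = 4.7e-05. The exons of CPM share 2.93% of their bases with other genes, among them MDM2 on the opposite strand (4.69 FPKM with phosphoramidon and 5.11 FPKM untreated, log2 fold change -0.19), and its part in the value was not tested. DPP4, LNPEP and ENPEP share 3.434%, 2.725% and 1.205% of their exon bases with opposite-strand genes. Those genes had group means of at most 0.278 FPKM, and their part was not tested either.

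Within each library CPD outweighed CPM by a ratio of 2.33, 2.48 and 2.52 after phosphoramidon, against 1.05, 1.16 and 1.10 in untreated libraries. This ratio does not depend on scaling between libraries. The groups did not overlap, and the exact permutation p was 0.1 (two-sided), the smallest that 3 against 3 allows. The same p was found for 2 further ratios, LNPEP over ENPEP and PRCP over DPP7, and remained 0.1 after Benjamini-Hochberg adjustment over the 3 ratios. Each ratio set a member that rose over a member that fell. Its separation therefore largely follows from those changes and is no further evidence for them.

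**Figure D3:**
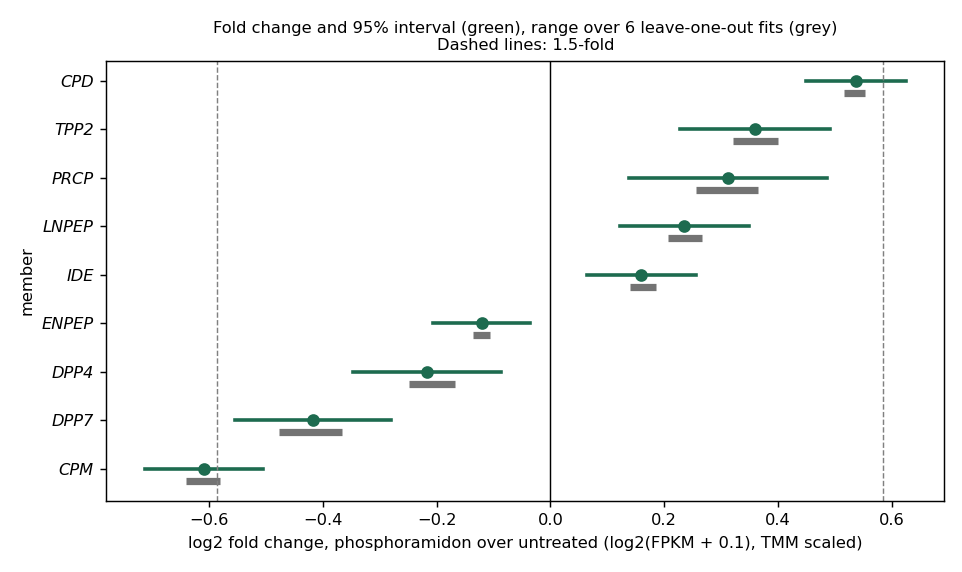
Log2 fold change, phosphoramidon over untreated, of the 9 tested members with 95% intervals (green) and the range over the 6 fits that each leave out 1 library (grey). CPD at 0.54 and CPM at -0.61 stand farthest from 0, their intervals reach past the dashed lines at 1.5-fold, and no grey bar crosses 0.

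Among the M1 aminopeptidases LNPEP rose and ENPEP fell slightly. LNPEP, insulin-regulated aminopeptidase or oxytocinase (ENSG00000113441, chromosome 5, 96935394 to 97037515, plus strand), cycles between vesicles and the cell surface and cleaves oxytocin and vasopressin. It was at 8.04, 8.54 and 8.96 FPKM in phosphoramidon libraries and at 6.78, 7.01 and 6.81 FPKM in untreated libraries. The groups did not overlap. Its log2 fold change was 0.24 ± 0.05 (SE), with limma adjusted p = 0.0074, and the call held in each of the 16 alternatives run.

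ENPEP, aminopeptidase A (ENSG00000138792, chromosome 4, 110365733 to 110565285, plus strand), is a brush border enzyme that takes the N-terminal aspartate from angiotensin peptides. It was at 28.2, 27.9 and 27.9 FPKM in phosphoramidon libraries and at 28.1, 29.97 and 28.9 FPKM in untreated libraries. As deposited, the groups overlapped, since untreated replicate 1 lay within the phosphoramidon range. After scaling, the log2 fold change was -0.12 ± 0.04 (SE), with a 95% interval from -0.21 to -0.04 and limma adjusted p = 0.036. As deposited it was -0.05 (adjusted p = 0.32), and the call was also lost without phosphoramidon replicate 2 (adjusted p = 0.10) or 3 (0.097), without untreated replicate 2 (0.12) or 3 (0.079), and with no filter on low genes (0.061), over a range of limma adjusted p from 0.013 to 0.32. The ratio of LNPEP to ENPEP was 0.286, 0.306 and 0.322 after phosphoramidon, against 0.242, 0.234 and 0.235 in untreated libraries.

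Of the serine peptidases that cut beside proline, PRCP rose while DPP7 and DPP4 fell. PRCP, prolylcarboxypeptidase (ENSG00000137509, chromosome 11, 82823502 to 82970584, minus strand), is a lysosomal enzyme that removes the residue after a proline at the C-terminal end, for example from angiotensins. It was at 4.82, 4.95 and 4.44 FPKM in phosphoramidon libraries and at 3.69, 3.38 and 3.77 FPKM in untreated libraries. The groups did not overlap. For PRCP the fitted log2 difference was 0.31 ± 0.08 (SE), at a limma adjusted p = 0.014. It missed the threshold when phosphoramidon replicate 2 was left out (adjusted p = 0.056), with no filter (0.055) and once a trend of gene length and GC content was removed (0.077, tried after the data were seen), over a range of limma adjusted p from 7.1e-05 to 0.077. The exons of PRCP share 2.20% of their bases with DDIAS on the opposite strand, which was at 3.76 FPKM with phosphoramidon and 2.24 FPKM untreated (log2 fold change 0.66, limma adjusted p = 6.0e-04). Its part in the PRCP value was not tested.

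DPP7, a dipeptidyl peptidase of intracellular vesicles related to PRCP (ENSG00000176978, chromosome 9, 137110542 to 137115177, minus strand), releases dipeptides that end in proline or alanine. It was at 10.6, 11.2 and 11.3 FPKM in phosphoramidon libraries and at 14.1, 15.3 and 12.9 FPKM in untreated libraries. All phosphoramidon values lay below the lowest untreated value. For DPP7 the fitted log2 difference was -0.42 ± 0.06 (SE), at a limma adjusted p = 0.0011, and the call held in each of the 16 alternatives. The ratio of PRCP to DPP7 was 0.456, 0.441 and 0.392 after phosphoramidon, against 0.262, 0.221 and 0.292 in untreated libraries.

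DPP4, or CD26 (ENSG00000197635, chromosome 2, 161992241 to 162074542, minus strand), is a brush border ectoenzyme that takes N-terminal dipeptides from incretins and chemokines. It was at 36.2, 37.8 and 34.4 FPKM in phosphoramidon libraries and at 38.5, 38.9 and 42.7 FPKM in untreated libraries. The highest phosphoramidon value and the lowest untreated value lay close together. For DPP4 the fitted log2 difference was -0.22 ± 0.06 (SE), at a limma adjusted p = 0.019. It missed the threshold when phosphoramidon replicate 3 was left out (adjusted p = 0.060), without untreated replicate 3 (0.055), as deposited (0.059) and with no filter (0.078), over a range of limma adjusted p from 7.3e-04 to 0.078.

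Both cytosolic members rose. TPP2, tripeptidyl peptidase II (ENSG00000134900, chromosome 13, 102597003 to 102679958, plus strand), is a very large serine peptidase complex that takes tripeptides from the N-terminal end of peptides, many of them released by the proteasome. It was at 9.99, 11.3 and 10.8 FPKM in phosphoramidon libraries and at 7.51, 7.96 and 8.29 FPKM in untreated libraries. The groups did not overlap. The log2 fold change was 0.36 ± 0.06 (SE), with limma adjusted p = 0.0019, and the call held in each of the 16 alternatives.

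IDE, insulin-degrading enzyme (ENSG00000119912, chromosome 10, 92451684 to 92574076, minus strand), breaks down insulin, amyloid-beta and other short peptides inside a closed chamber. It was at 15.6, 15.8 and 16.03 FPKM in phosphoramidon libraries and at 12.9, 13.6 and 13.9 FPKM in untreated libraries. The groups did not overlap, and the change was the smallest of the 5 that rose. For IDE the fitted log2 difference was 0.16 ± 0.04 (SE), at a limma adjusted p = 0.019. It missed the threshold when phosphoramidon replicate 2 was left out (adjusted p = 0.059), without untreated replicate 1 (0.060) or 2 (0.057), and once a trend of gene length and GC content was removed (0.072), over a range of limma adjusted p from 0.0037 to 0.072.

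Catalytic class did not sort the changes. Of the 5 tested zinc enzymes, CPD, LNPEP and IDE rose and CPM and ENPEP fell, and of the 4 serine enzymes PRCP and TPP2 rose and DPP7 and DPP4 fell. The genes that rose were 7607 to 14966 bases long with 37.2 to 40.7% GC in their longest transcript, and those that fell were 2823 to 7720 bases long with 39.0 to 66.5% GC. Over 16146 tested genes the log2 fold change had a Spearman correlation of 0.06 with gene length and -0.16 with GC content, as a description across genes, which are not independent. With a smooth trend of both removed, CPD, LNPEP and TPP2 were still called higher and all 4 that fell were still called lower. In bulk RNA a change in level per cell and a change in the make-up of the culture cannot be told apart.

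Other peptidases that act on short peptides were taken as 5 lists with 48 genes, of which 45 had an ID and 34 could be tested. These lists were also chosen with earlier results of these data known, which limits any comparison of shares. Of the 34, 6 (17.6%) were called, 1 higher and 5 lower, where 33.6% of all tested genes were, and the median log2 fold change was -0.02. As deposited, without scaling, 8 were higher and 3 lower, where 36% of all tested genes were called. Both the number called and the direction of the split thus depend on scaling. The number called lower fell to 1 with no filter on low genes, and to 2 to 4 when a library was left out.

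Of 13 tested aminopeptidases, 1 was called and fell. That was AOPEP, aminopeptidase O, at 2.51 ± 0.223 FPKM with phosphoramidon and 3.01 ± 0.139 FPKM untreated (log2 fold change -0.32, limma adjusted p = 0.017). Of 8 tested dipeptidyl and prolyl peptidases 2 were called and fell, DPP3, a cytosolic zinc dipeptidyl peptidase (10.1 ± 0.445 FPKM with phosphoramidon and 11.1 ± 0.650 FPKM untreated, log2 fold change -0.21, limma adjusted p = 0.030), and APEH, which releases acylated N-terminal residues (18.1 ± 0.433 FPKM with phosphoramidon and 18.9 ± 0.404 FPKM untreated, log2 fold change -0.14, limma adjusted p = 0.043). As deposited, the groups overlapped in DPP3 but not in APEH. Among carboxypeptidases 1 of 7 rose and 1 fell. CPA4, a secreted zinc carboxypeptidase, was at 11.2 ± 0.907 FPKM with phosphoramidon and 19.9 ± 0.815 FPKM untreated (log2 fold change -0.90 ± 0.07 (SE), limma adjusted p = 5.2e-05), and SCPEP1, a lysosomal serine carboxypeptidase, was at 5.61 ± 0.0851 FPKM with phosphoramidon and 4.16 ± 0.254 FPKM untreated (log2 fold change 0.35, limma adjusted p = 0.0025). Of 4 tested endo-oligopeptidases limma called 0, though 3 had an unadjusted p under 0.05 and 1 was called with voom weights. Of 2 tested dipeptide and glutamyl hydrolases 1 fell, the gamma-glutamyl transferase GGT1, a brush border enzyme of glutathione breakdown (0.528 ± 0.0659 FPKM with phosphoramidon and 0.833 ± 0.183 FPKM untreated, log2 fold change -0.62, limma adjusted p = 0.022).

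**Figure D4:**
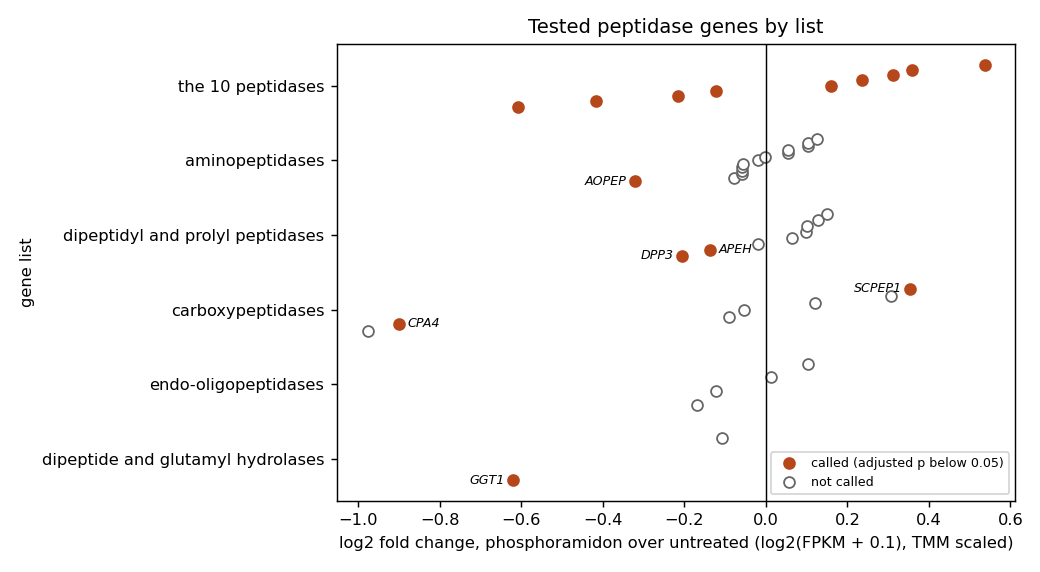
Log2 fold change, phosphoramidon over untreated, of each tested gene in the 10 peptidases (top row, 9 tested) and in the 5 lists of other peptidases (34 tested), filled where limma's adjusted p was below 0.05. The called genes outside the 10 are SCPEP1 on the right and CPA4, GGT1, AOPEP, DPP3 and APEH on the left.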

How the data were processed

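Total RNA of 6 HK-2 libraries was sequenced. The authors deposited 1 FPKM value per Ensembl gene ID and library, a unit found from the values. Per the submitters' processing notes the tools included HISAT2 2.1.0, featureCounts 1.6.0, Trimmomatic 0.38 and DESeq2 1.22.1, and the build was GRCh38. Neither the strand setting nor the annotation release is known from the labels or files. Each value times the merged exon length of GENCODE 29 fell on whole multiples of a step per library for 76.4% of 34623 genes above 0 (within 0.001). For the others the nearest length that gave whole numbers was used. A single fragment on 1 kb equalled 0.0401 to 0.0535 FPKM, a limit on the precision of low values.

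FPKM were divided by TMM factors (30% of M and 5% of A values trimmed) and tested as log2(FPKM + 0.1) with limma 3.58.1 (R 4.3.3), trended and robust prior, group as the only term. Genes with at least 10 fragments in at least 3 libraries entered, 16175 in all. A fold change on this scale understates that of low genes. FPKM means and SDs are as deposited. The fit was tested on simulated data, where it called 38.6% of genes changed 1.25-fold and 67.8% of those changed 1.5-fold. Of unchanged genes 0.0728% were called. A gene with a small change can thus go uncalled. Alternatives changed the pseudocount, filter, scaling, prior, weighting (voom), replicate block and libraries. All members are named, and of the other lists up to 4 called genes each with the lowest p. Members and lists were chosen with earlier results of these data known. CPN1, MEP1A and FOLH1 were not analysed here.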

Additional observations from a re-analysis of the deposited data

How the results depend on the processing

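CPD, CPM, DPP7, LNPEP and TPP2 kept direction and call in all 16 alternatives, and no member changed direction in any. With no filter, DPP4 (-0.217), ENPEP (-0.121) and PRCP (0.312) missed the threshold, 2 members were called lower, 1 related peptidase lower, and 1543 of all genes higher, with 34623 genes tested. As deposited, DPP4 (-0.146) and ENPEP (-0.05) missed it, 2 members were lower, 8 related peptidases higher and 3 lower, and 3647 of all genes were higher and 2169 lower, against 2531 and 2901 after scaling. With the length and GC trend removed (chosen after seeing the data), IDE (0.103) and PRCP (0.237) missed it, 3 members and 3 related peptidases were higher. Related peptidases called higher numbered 3 with a minimum of 50 fragments, 3 with voom and 2 with a prior that is not robust, against 1. Leaving out each library in turn gave log2 fold changes of -0.249 to -0.167 for DPP4, -0.136 to -0.107 for ENPEP, 0.139 to 0.185 for IDE and 0.256 to 0.365 for PRCP, with 3 to 5 members higher and 2 to 4 lower, and 1 to 2 related peptidases higher and 2 to 4 lower. These fits have 1 library fewer, and other causes were not tested. With the replicate number as a block, 5 members were higher and 4 lower as without it, and 2 related peptidases were higher. The numbers share no stated origin, and same-numbered libraries had correlated deviations of 0.111, -0.021 and -0.011, so they were not taken as pairs. The depth limits ANPEP, at 5 to 10 fragments per library.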
